A study of Sus scrofa with 2 samples.

Results

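C4BPA encodes the alpha chain of C4b-binding protein, a soluble regulator of the complement system. It was taken up here because it ranked high among the variable genes of pig skin cells, and its row was found by symbol in the feature lists, where 1 of 31908 rows (ENSSSCG00000015662) carried it. Dorsal skin of healthy male farm pigs was dissociated, and living single cells were sorted by FACS and sequenced in droplets by 3′ single-cell RNA-seq, in which unique molecular identifiers (UMIs) count each captured transcript once. The fresh sample was 1 library of untreated cells, and the cryopreserved sample was 1 library of cells frozen in 90% FBS and 10% DMSO and thawed. The extraction text of both samples describes freezing, while their titles and treatment labels tell them apart, and neither the labels nor the methods state whether 1 animal gave both. The question asked of C4BPA was which cells carried its transcripts, at what level in each library, and which genes varied with it.

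C4b-binding protein circulates as a multimer of alpha chains, most of which also holds a beta chain, the product of the neighbouring gene C4BPB. The alpha chains bind C4b, the active fragment of complement component C4, speed the decay of the C3 convertase of the classical and lectin pathways, and act as a cofactor for the protease factor I, which cleaves C4b. The beta chain binds the anticoagulant protein S (PROS1), and CD40 has been described as a cell surface partner of the alpha chain. The plasma protein is made mostly by the liver. In skin, resident macrophages clear debris and iron from dying red cells, present antigen through MHC class II (named SLA in the pig), and are a main source of C1q, the recognition unit of the classical pathway.

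In the RefSeq annotation of Sscrofa11.1, the genome build to which the reads were mapped, C4BPA lay on the plus strand at chr9:67726159-67774369, just downstream of C4BPB at chr9:67716205-67725785. RefSeq also gave the symbol C4BPA to a shorter entry further downstream (synonym APOR) at chr9:67815544-67827509. The Ensembl row of the count tables could not be assigned to 1 of these entries from the files used here, so the values below belong to the row with that symbol, and a split of reads between the entries was not tested. The longer entry had 13 coding exon intervals and the shorter 6, of which 1 pair was compared here. The exon at chr9:67764927-67765100 and the exon at chr9:67825338-67825511 both had 174 bases and differed at 6 of them (96.6% identity). They are given here because reads from this stretch can be told apart only where they cover one of the differing bases, which are in capitals. Reads of a 3′ kit come mostly from transcript ends, which were not compared here.
C4BPA exon: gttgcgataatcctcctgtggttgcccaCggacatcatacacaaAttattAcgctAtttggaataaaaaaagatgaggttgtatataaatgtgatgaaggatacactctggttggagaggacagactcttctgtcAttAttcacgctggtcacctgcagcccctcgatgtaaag
APOR exon: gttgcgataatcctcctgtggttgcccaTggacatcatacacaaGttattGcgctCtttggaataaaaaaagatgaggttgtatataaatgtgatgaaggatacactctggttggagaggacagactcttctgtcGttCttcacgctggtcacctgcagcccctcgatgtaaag
Counted from 1 at the 5′ end of the exon, with the base of the longer entry first, the differences were C29T, A45G, A51G, A56C, A136G and A139C.

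The filtered cells, those with at most 4500 genes, 30000 UMIs and 10% mitochondrial UMIs, numbered 2775 (fresh) and 4223 (cryopreserved), with medians of 11017 and 7945 UMIs per cell. Of the barcodes in the tables, 6 occurred in both libraries and 5 passed the filter in both; these held 1 (fresh) and 404 (cryopreserved) C4BPA UMIs. C4BPA was chosen for its variance, so its overall values are descriptive. It had 11385 UMIs in the fresh library, or 353 per 1000000 UMIs (CPM, 95% Poisson interval 346 to 359). The cryopreserved library had 24808 UMIs, or 676 CPM (interval 668 to 685). Each condition had 1 library, so intervals throughout cover counting error only, and no test between conditions was possible. By standardized variance it ranked 2 in both libraries, at 21.04 and 19.6. KRT1, a keratin of differentiating keratinocytes, stood just above it in the fresh library at 21.5, with KRT10 just below at 20.4, while CTSL, encoding the lysosomal protease cathepsin L, stood above it in the cryopreserved library at 20.8 and CCL5 below at 18.2.

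The UMIs were packed into few cells. A C4BPA UMI was found in 341 fresh cells (12.3%, exact binomial interval 11.09 to 13.6%) and in 472 cryopreserved cells (11.2%, interval 10.2 to 12.2%), of which 177 and 199 held exactly 1. At least 10 UMIs were found in 88 fresh and 177 cryopreserved cells, and at least 100 in 40 and 96. The 10% of cells with most C4BPA UMIs held 99.4% (fresh) and 99.8% (cryopreserved) of them, and the 1% with most (28 and 43 cells) held 63.7% and 49.98%. In the richest cells the gene took 6.78% (fresh) and 4.45% (cryopreserved) of all UMIs of the cell, with maxima of 545 and 432 UMIs.

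To find the cells, both libraries were integrated and clustered with C4BPA removed from the features, so that the gene itself did not place a cell, and the clusters were named from fixed marker lists. Macrophage-like cells carried nearly all of the transcript. This class of 154 fresh and 276 cryopreserved cells (5.55% and 6.54% of the cells) held 96.3% of the fresh C4BPA UMIs (interval 96.0 to 96.7%) and 98.2% of the cryopreserved ones (interval 98.1 to 98.4%). Its level was 7302 CPM (interval 7166 to 7440) among fresh and 10869 CPM (interval 10733 to 11007) among cryopreserved cells. A UMI was found in 73.4% and 72.1% of these cells, with medians of 20.5 and 42 UMIs. Fibroblast-like cells came next at 25.7 CPM (fresh, interval 22.9 to 28.8) and 28.4 CPM (cryopreserved, interval 25.5 to 31.7). The unnamed clusters together followed at 11.08 and 8.47 CPM. In both libraries the intervals of the first 2 classes overlapped with no other, while that of the unnamed clusters overlapped with that of Basal keratinocyte-like cells (8.85 and 4.86 CPM). In that class 1 fresh cell held 47 of the 56 UMIs, and without it the fresh level was 1.43 CPM (interval 0.652 to 2.71), below the interval of the unnamed clusters. All remaining classes lay between 0 and 3.71 CPM with overlapping intervals, so their order could not be read.

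**Figure D1:**
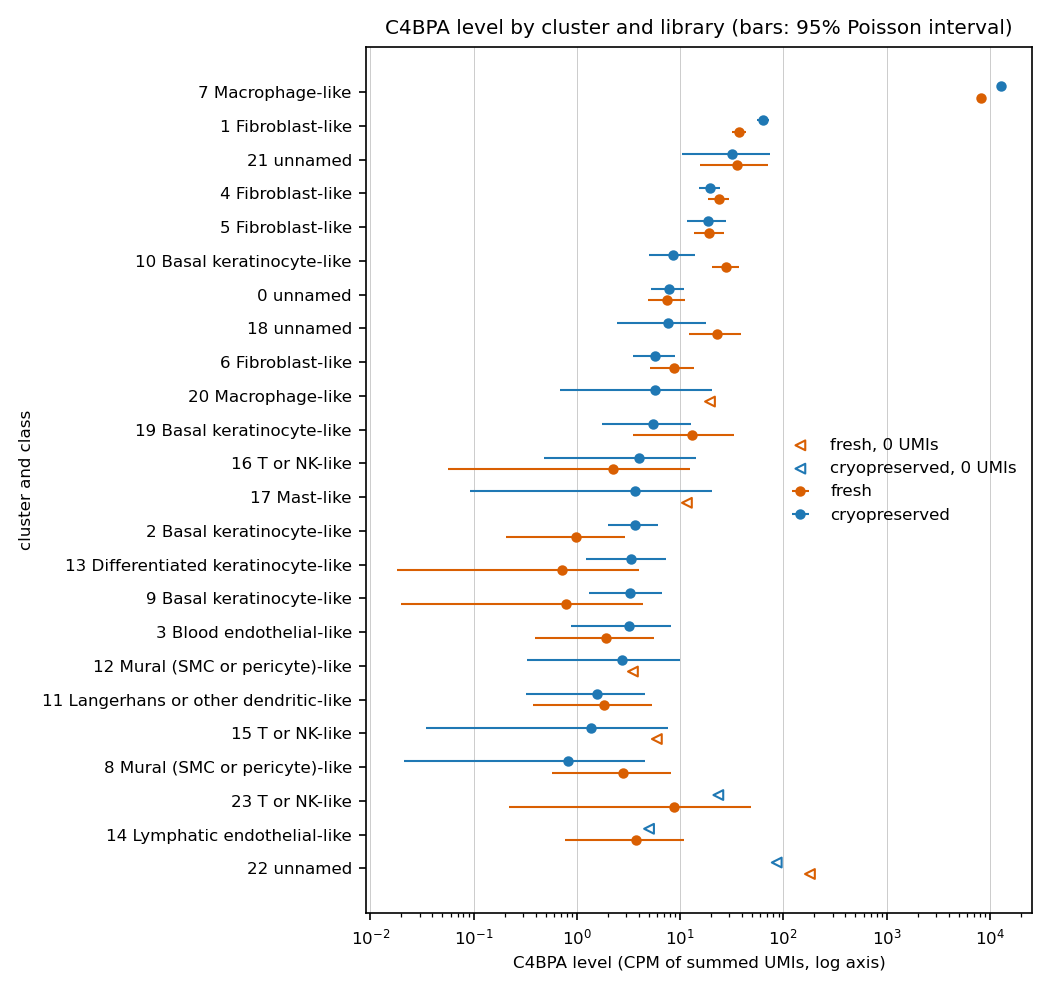
C4BPA level (CPM of summed UMIs, log axis) in each of the 24 clusters, with fresh in orange and cryopreserved in blue, bars giving the 95% Poisson interval and open triangles marking clusters with 0 UMIs, drawn at the level of 3 counts. Cluster 7 stands at 8135 and 12887 CPM, and the next cluster, fibroblast-like cluster 1, at 37.5 and 63.4 CPM.

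Langerhans or other dendritic-like cells, which are also antigen-presenting cells, held next to none. With 107 fresh and 183 cryopreserved cells they held 3 C4BPA UMIs in each library, or 1.84 CPM (interval 0.38 to 5.39) and 1.56 CPM (interval 0.32 to 4.57), although C1QA was at 349 and 294 CPM in the same cells. Lymphatic endothelial-like cells had 3 UMIs (fresh) and 0 (cryopreserved), where 3 counts would be 5.01 CPM. Mast-like cells had 0 UMIs in the fresh library, where 3 counts would be 11.7 CPM, and 1 UMI in the cryopreserved library.

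Within the macrophage-like class the transcript belonged to 1 of its 2 clusters. Cluster 7 (139 fresh and 232 cryopreserved cells) led with CD209, a lectin receptor of phagocytes, the chemokines CCL8 and CCL14, CTSL, the C1q genes C1QA and C1QB, and the scavenger receptor MSR1. It had 8135 CPM of C4BPA (interval 7984 to 8289) among fresh cells and 12887 CPM (interval 12726 to 13050) among cryopreserved cells. Of all genes detected there, C4BPA had the 4th highest UMI sum in both libraries, 0.814% and 1.29% of the UMIs of the cluster. Cluster 20 (15 and 44 cells) led with ARG1 (arginase), the scavenger receptor MARCO and CD300C, and held 0 C4BPA UMIs (fresh) and 2 (cryopreserved). For the 0 UMIs of the 15 fresh cells, 3 counts over the cluster would be 19.5 CPM, and cluster 7 was 417-fold above that level. The exact interval of the fresh ratio began at 339. The ratio in the cryopreserved library was 2263 (interval 626 to 18687).

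The 2 clusters also differed in the genes that mark them, which are descriptive since the same cells were clustered on them. CD209 was at 1329 and 3141 CPM in cluster 7, against 0 UMIs (fresh) and 1 UMI (cryopreserved) in cluster 20. The folate receptor FOLR2 was at 555 and 850 CPM in cluster 7 and had 0 UMIs in cluster 20 of both libraries. By the exact intervals cluster 7 was at least 23.1-fold (fresh) and at least 80.9-fold (cryopreserved) higher. LYVE1, a hyaluronan receptor of lymphatic endothelium and of some tissue macrophages, was at 136 and 289 CPM against 0 UMIs, at least 5.63-fold and at least 27.4-fold higher. C1QA was shared more widely, at 5402 and 6552 CPM in cluster 7 and 293 and 891 CPM in cluster 20, ratios of 18.5 (interval 13.8 to 25.3) and 7.35 (interval 6.57 to 8.25). MARCO went the other way, with 1 UMI in cluster 7 of each library and 156 and 228 CPM in cluster 20. Summed over the 10 macrophage markers, cluster 7 had 17305 and 23398 CPM and cluster 20 had 2321 and 3559 CPM, while the dendritic list summed to 711 and 567 CPM in cluster 7 and to 1716 and 1466 CPM in cluster 20. Differentiated keratinocyte markers summed to 19.5 CPM (fresh) and 1720 CPM (cryopreserved) in cluster 20, against 58.6 and 36.5 CPM in cluster 7. Of the cells of cluster 20, 5 of 15 fresh and 7 of 44 cryopreserved ones were among the 6% with the highest Scrublet doublet scores, and of cluster 7 it was 6 of 139 and 12 of 232. The part of mixed cells in the low level of cluster 20 was not tested.

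Single cells of cluster 7 ranged from no transcript to several percent of the cell. In the fresh library the lowest, median and highest cell of the 139 were at 0, 3639 and 67797 CPM. In the cryopreserved library the 232 cells gave 0, 10116 and 44502 CPM. No C4BPA UMI was found in 18.7% of fresh cells (interval 12.6 to 26.2%) and 15.1% of cryopreserved cells (interval 10.7 to 20.4%), whereas 28.8% (interval 21.4 to 37.1%) and 41.4% (interval 35.0 to 48.0%) held at least 100. A level shared by all cells of the cluster would have left 0.00859% of fresh cells without a UMI at these depths. The variance of the UMIs per cell was 145 and 109 times their mean. The cells with at least 100 C4BPA UMIs had median depths of 14554.5 and 10689.5 UMIs. Cells with 1 to 9 had 5321 and 4307, and cells with none had 7213.5 and 5105. These groups were set by UMIs and not by CPM, so a deep cell reaches 100 more easily. Whether depth moves with the level cannot be read from them. The median mitochondrial share was 2.24% and 1.65% in cells with at least 100 UMIs against 3.89% and 3.49% in cells with none. The part of depth and cell quality in this spread was not tested beyond thinning. With every cell thinned to 1000 UMIs, 68.9% of fresh and 82.2% of cryopreserved cells of cluster 7 kept a C4BPA UMI, against 81.3% and 84.9% without thinning.

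**Figure D2:**
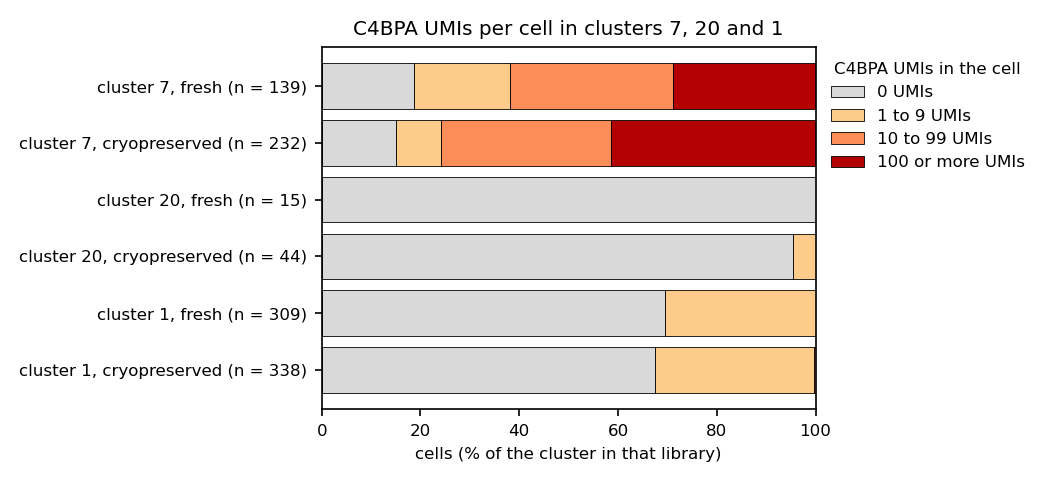
Share of cells (%) of clusters 7, 20 and 1 in each library by the number of C4BPA UMIs in the cell, in 4 bins from 0 to 100 or more. Cluster 7 spans all bins, with 28.8% (fresh) and 41.4% (cryopreserved) of cells at 100 or more, cluster 20 is nearly all at 0, and 30.4% and 32.5% of the cells of cluster 1 hold at least 1 UMI.

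A low level was seen in fibroblast-like cells, above all in cluster 1, which led with WIF1 and RSPO1, a secreted inhibitor and a secreted activator of Wnt signalling, and with NT5E, the ectoenzyme CD73. Its 309 fresh cells held 169 C4BPA UMIs, a level of 37.5 CPM (interval 32.1 to 43.6), and its 338 cryopreserved cells held 217, a level of 63.4 CPM (interval 55.3 to 72.5). A UMI was found in 30.4% of the fresh cells (interval 25.3 to 35.9%) at a median depth of 13873 UMIs and in 32.5% of the cryopreserved cells (interval 27.6 to 37.8%) at 9442.5. Among cell types that should lack the gene, the share was 1.49% and 1.48% in Blood endothelial-like cells (median depths 6531 and 3958) and 1.38% and 1.18% in T or NK-like cells (6512 and 4813). After thinning to 1000 UMIs the shares were 4.87% (interval 2.75 to 7.91%) and 5.67% (interval 3.45 to 8.72%) in cluster 1, against 0% and 0.755% in Blood endothelial-like cells. No cell of cluster 1 held more than 11 UMIs, where cluster 7 reached 545.

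Few UMIs of other macrophage genes accompanied those of cluster 1. For every 100 C4BPA UMIs, cluster 7 had 16.3 (fresh) and 24.4 (cryopreserved) CD209 UMIs, and cluster 1 had 0 and 0.461. C1QA gave 66.4 and 50.8 in cluster 7 and 0.592 and 3.23 in cluster 1. Cells outside the Macrophage-like and Fibroblast-like classes and clusters 0, 18 and 21 had 71 and 63 C4BPA UMIs in all with 8 and 14 of CD209, or 11.3 and 22.2 per 100. C1QA, which the dendritic class among them carries, was at 906 and 956 per 100 there. Of the 71 fresh C4BPA UMIs, 47 lay in 1 cell of cluster 10 with 2 CD209 UMIs, so this cell weighs heavily in the fresh ratios. Fibroblast-like cluster 4 (CTHRC1, ASPN, SFRP2) had 23.9 and 19.6 CPM, cluster 5 (CCL19, LEPR) 19.3 and 18.6 CPM, and cluster 6 (PTX3, SEMA3G) 8.66 and 5.76 CPM. Cluster 0, an unnamed cluster led by FCN2, MYOC and FGF10 that met 4 fibroblast markers but had an adipocyte marker (PLIN1) and no fibroblast marker among its leading genes, had 7.49 and 7.77 CPM. In both libraries the interval of cluster 1 lay above those of clusters 4, 5, 6 and 0. C1QA per 100 C4BPA UMIs was 24.3 and 17.4 in cluster 5 and 16.7 and 42.1 in cluster 6. Cluster 0 had 24 and 35.5, and cluster 4 had 4 and 8.33, so for C1QA all were above cluster 1. C1QB per 100 was 4.73 and 1.38 in cluster 1, against 4 and 1.39 in cluster 4. C1QC was 0 and 1.84 in cluster 1, 2.67 and 0 in cluster 4, and 16.7 and 0 in cluster 6. The higher C4BPA level of cluster 1 also lowers its ratios. As CPM, C1QA, C1QB and C1QC summed to 1.999 and 4.09 in cluster 1 and to 2.55 and 1.90 in cluster 4. Clusters 5, 6 and 0 had higher sums than cluster 1 in both libraries, but from few UMIs. Cluster 1 had 9 and 14 UMIs of these genes, cluster 5 had 23 and 8, cluster 6 had 9 and 15, and cluster 0 had 13 and 20. At these counts the order in the cryopreserved library could not be read. CD209 had 3 and 1 UMIs in cluster 5, 2 and 3 in cluster 6, and 3 and 5 in cluster 0. Their C4BPA UMIs numbered 37 and 23, 18 and 19, and 25 and 31. Cluster 4 had 1 and 4 CD209 UMIs with 75 and 72 of C4BPA. The part of RNA from other cells in the levels of clusters 1, 4, 5, 6 and 0 was not tested. Cluster 21, a small unnamed cluster of dividing cells, had 35.9 and 31.9 CPM from 8 and 5 UMIs. A UMI was found in 38.9% of its 18 fresh cells and 31.25% of its 16 cryopreserved cells. Its intervals (15.5 to 70.7 and 10.4 to 74.5 CPM) overlapped those of cluster 1. Unnamed cluster 18 had 22.7 CPM (fresh, interval 12.1 to 38.8) and 7.61 CPM (cryopreserved, interval 2.47 to 17.8), overlapping cluster 1 in the fresh library only. Of the cells with at least 10 UMIs, only 2 fresh and 1 cryopreserved cell lay outside cluster 7. The highest of these, a fresh cell of keratinocyte-like cluster 10, held 47 of the 48 UMIs of its cluster together with 2 CD209 and 21 C1QA UMIs, and was among the 6% of cells with the highest Scrublet doublet scores.

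The rank of C4BPA among variable genes rested on the macrophage-like class. Without it, C4BPA ranked 1022 (fresh) and 2247 (cryopreserved), with standardized variances of 2.49 and 1.59. Leaving out only cluster 7 gave ranks 1028 and 2282. Leaving out any other class kept the rank between 1 and 8, the furthest being 6 and 8 without Basal keratinocyte-like cells. Among macrophage-like cells alone the rank was 523 (fresh) and 1940 (cryopreserved), and within cluster 7 alone 734 and 6077. Within cluster 1, where the level is low, it was 1389 and 632.

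**Figure D3:**
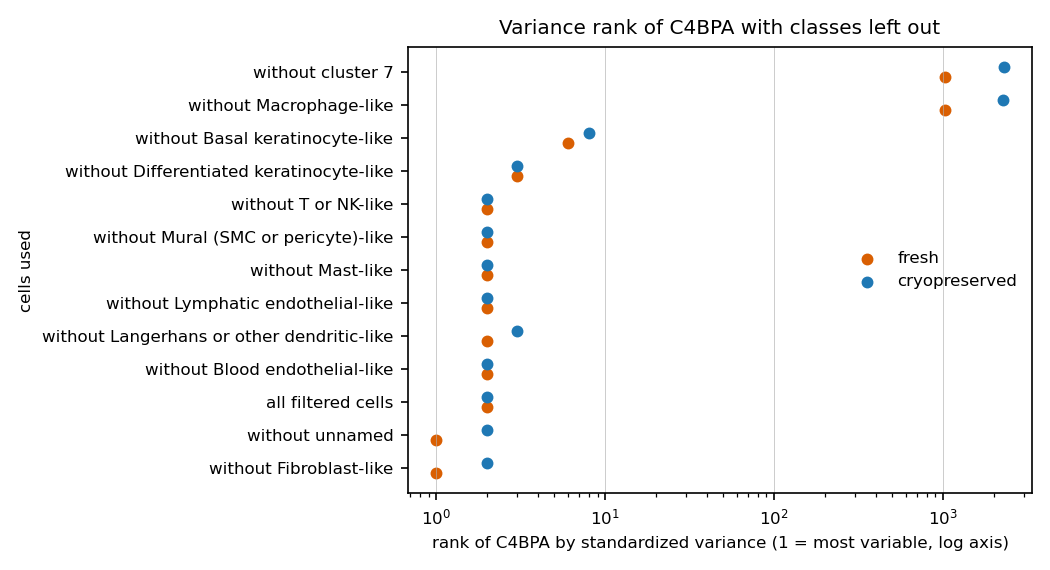
Rank of C4BPA by standardized variance (log axis, 1 is the most variable gene) over all filtered cells and with each class, or cluster 7, left out, for the fresh (orange) and cryopreserved (blue) library. The rank stays at 8 or better until the macrophage-like class (1022 and 2247) or cluster 7 (1028 and 2282) is removed.

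The macrophage-like cells were then clustered again on their own, from both libraries merged without integration, with C4BPA again kept out of the features. This gave 6 sub-clusters, which C4BPA ranked in the same order in both libraries. Sub-cluster 0 (26 fresh and 82 cryopreserved cells), rich in CD209, LYVE1, CCL14, the plasma selenium carrier SELENOP and the haem-degrading enzyme HMOX1, had 16327 CPM (interval 15817 to 16850) and 20276 CPM (interval 19942 to 20615). Sub-cluster 4 (14 and 44 cells), rich in CTSL and CD209, had 11560 and 11411 CPM, and each of its cells held a C4BPA UMI. In the fresh library it had more CD209 than sub-cluster 0 (3098 against 1885 CPM). Fresh LYVE1 was at 381 against 279 CPM with overlapping intervals, while CCL14, SELENOP and HMOX1 were lower than in sub-cluster 0. Sub-cluster 1 (34 and 44 cells) had 7842 and 7473 CPM. Sub-cluster 2 (39 and 32 cells), led by the heat shock genes HSP70.2 and DNAJB1 and by IGF1, had 5351 and 7315 CPM, whose interval overlapped that of sub-cluster 1 in the cryopreserved library only. Sub-cluster 3 (28 and 31 cells), led by the decoy receptor IL1R2 and the lymph node homing receptor CCR7, had 2534 and 3199 CPM, with a UMI in 53.6% and 41.9% of cells, and 1 cell held 47.4% of its cryopreserved UMIs. Sub-cluster 5 (13 and 43 cells), all from cluster 20, had 0 and 5.77 CPM.

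Sub-cluster 1 stood apart in quality and in its mix of genes. Its median depths of 4473 and 3760 UMIs were the lowest of the 6, its immediate early gene EGR1 was at 377 and 454 CPM, and the 9 fibroblast markers summed to 1340 CPM (fresh) and 7421 CPM (cryopreserved), against 264 to 1035 and 156 to 344 CPM in sub-clusters 0, 2, 3 and 4. Its basal keratinocyte markers summed to 877 and 165 CPM. The part of RNA from other cells in it was not tested.

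**Figure D4:**
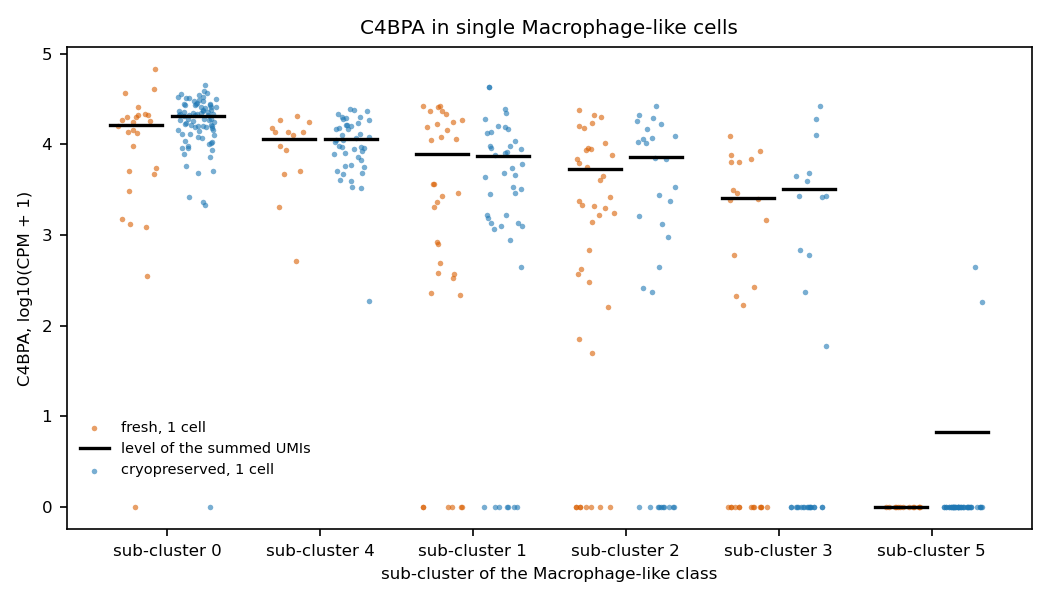
C4BPA in single Macrophage-like cells, as log10(CPM + 1), by sub-cluster and library (orange fresh, blue cryopreserved), with black lines at the level of the summed UMIs. Sub-cluster 0 has 1 cell at 0 in each library and sub-cluster 4 has none, sub-cluster 3 has many at 0 (UMIs in 53.6% and 41.9% of cells), and sub-cluster 5 is at 0 but for 2 cryopreserved cells.

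Sub-cluster 0, with the most C4BPA, was then set against sub-cluster 3, with the least of those formed mainly of cluster 7. Sub-cluster 3 also held 2 fresh and 1 cryopreserved cell of cluster 20, without which its level was 2808 and 3270 CPM. Its dendritic markers summed to 1911 and 1533 CPM, against 532 and 530 CPM in sub-cluster 0. The macrophage markers summed to 10752 and 12728 CPM in sub-cluster 3 and to 19594 and 26618 CPM in sub-cluster 0. The part of dendritic or mixed cells in sub-cluster 3 was not tested. Sub-cluster 0 was higher than sub-cluster 3 at least 2-fold in both libraries for 50 of the 1981 genes with at least 50 UMIs in each library (2.52%), and it was lower for 78 (3.94%). These cells were clustered on many of the same genes, so the values are descriptive. The 2 sub-clusters were picked by C4BPA level, so its difference follows from that choice, and genes that vary with it share in this. C4BPA itself, chosen for its variance among these cells, differed by 2.69 and 2.66 on the log2(CPM + 1) scale. The others higher in sub-cluster 0 included CD209 (2.99 and 4.01), CTSL (2.29 and 3.34), FOLR2 (2.26 and 2.80), HMOX1 (1.89 and 2.79), the collectin COLEC12 (2.05 and 1.89) and the chemokine CCL2 (1.63 and 3.15). Lower in sub-cluster 0 were the chemokine CCL5 (-3.95 and -3.58), CCR7 (-5.47 and -3.41) and the MHC class II genes SLA-DRB1 (-2.67 and -2.99), SLA-DRA (-2.39 and -2.58) and SLA-DQB1 (-2.19 and -2.31). On the complement lists, C1QB and COLEC12 of 4 classical and lectin genes and CFD of 2 central and alternative ones were higher, and none of 3 receptors passed. The scavenger receptor MSR1 was at 613 and 430 CPM in sub-cluster 0 and at 484 and 593 CPM in sub-cluster 3. SLA-DRA was at 858 and 736 CPM in sub-cluster 0 and 4515 and 4411 CPM in sub-cluster 3.

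Without thinning, the gene most like C4BPA was CD209, across clusters, across macrophage-like cells and across the cells of cluster 7. Across the clusters with at least 20 cells (20 fresh and 22 cryopreserved clusters), the correlation of log2(CPM + 1) was 0.84 and 0.87 for CD209, the highest of 13018 genes by the lower of both values. ENSSSCG00000031640, paired with no symbol in the tables used, followed at 0.84 and 0.85, then SLC8B1 (0.79 and 0.78), RENBP (0.82 and 0.77), PEPD (0.79 and 0.75), FOLR2 (0.77 and 0.75), the iron exporter SLC40A1 (0.87 and 0.73), CCL14 (0.73 and 0.77), the complement receptor VSIG4 (0.68 and 0.78) and the lipopolysaccharide co-receptor CD14 (0.70 and 0.68). The points share a library, differ in size and depth, and mostly lie near 0. Across the 154 fresh and 276 cryopreserved macrophage-like cells the correlation of CD209 with C4BPA was 0.78 and 0.86. With the cells thinned to 1000 UMIs it was 0.54 and 0.73, and among the first 10 genes C1QB then led by the lower of both values, with 0.61 and 0.68 (0.63 and 0.71 without thinning).

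Within cluster 7, cell by cell, the same receptor led without thinning. Over 139 fresh and 232 cryopreserved cells the correlation of log-normalized values with C4BPA was 0.73 and 0.78 for CD209, 0.70 and 0.64 for CCL14, and 0.65 and 0.63 for CFD, the protease factor D of the alternative pathway. FOLR2 (0.62 and 0.66), C1QB (0.58 and 0.60), C1QC (0.58 and 0.58), FOLR1 (0.57 and 0.56), PEPD (0.59 and 0.54) and LYVE1 (0.54 and 0.55) were also among the first 10 of 10538 genes. The lowest values belonged to ENSSSCG00000001456 (-0.47 and -0.52), again without a symbol, the junctional adhesion gene JAML (-0.39 and -0.51), XYLT1 (-0.38 and -0.42), IL1R2 (-0.37 and -0.44), SLA-DQB1 (-0.36 and -0.38) and SLA-DRB1 (-0.34 and -0.45), together with PLXNC1 and the mitochondrial genes COX2, CYTB and COX3. Cells of a library share its depth range, and thinning to 1000 UMIs lowered the value for CD209 to 0.50 and 0.64 and for LYVE1 to 0.18 and 0.31, with the same sign. C1QB stayed at 0.58 and 0.57, so that by the lower of both values it, and not CD209, led these 10 genes after thinning. The haemoglobin scavenger receptor CD163 had 0.30 and 0.33, the mannose receptor MRC1 0.21 and 0.39, and MSR1 0.12 and 0.06.

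**Figure D5:**
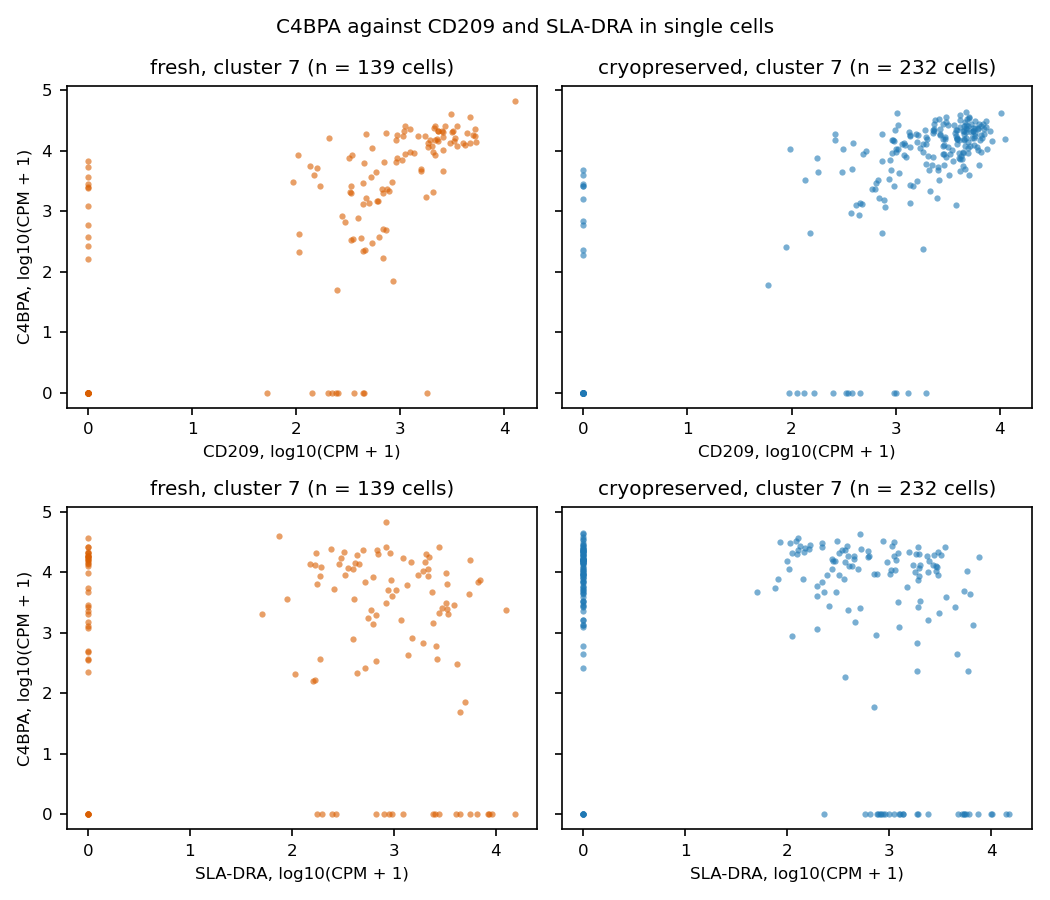
C4BPA against CD209 (top) and against the MHC class II gene SLA-DRA (bottom) in the single cells of cluster 7, as log10(CPM + 1), for the fresh (139 cells, left) and cryopreserved library (232 cells, right). Cells rich in CD209 are rich in C4BPA (correlations of log-normalized values 0.73 and 0.78), while SLA-DRA goes weakly the other way (-0.20 and -0.35).

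CD40, described as a partner of the alpha chain, was at 164 and 139 CPM in macrophage-like cells and at 46.0 and 46.2 CPM in all other cells together. C4BPB, the beta chain, had 20 fresh and 37 cryopreserved UMIs in all cells together and 1 UMI in the macrophage-like class of each library, against 10969 and 24373 for C4BPA there. PROS1, which binds the beta chain, was at 4.66 and 1.34 CPM in macrophage-like cells and at 109 and 143 CPM in Fibroblast-like cells. C4A, the source of the C4b that C4b-binding protein binds, was at 0.666 and 1.34 CPM in macrophage-like cells, and at 446 and 440 CPM in unnamed cluster 0. CFI, the protease that needs the cofactor, was at 2.66 and 2.68 CPM in macrophage-like cells. Its highest levels were in the dendritic class (9.22 and 15.1 CPM) and in Blood endothelial-like cells (7.01 and 11.3 CPM). CFI had only 110 and 150 UMIs in all cells together, so the order of the classes for it is uncertain. SERPING1, the inhibitor of C1r and C1s, was at 91.2 and 137 CPM in macrophage-like cells and at 630 and 717 CPM in Fibroblast-like cells.

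Over the fixed gene lists, macrophage-like cells were set against all other cells, and a gene was counted where the levels differed at least 2-fold the same way in both libraries. Among all 12727 genes with at least 50 UMIs in each library, 9.22% were higher by this count and 25.3% were lower, with a median log2 difference of -0.31. In the fresh library the other cells held 30772793 UMIs and macrophage-like cells 1502192. Genes high in the other cells therefore met this minimum more easily. Of the classical and lectin pathway, 10 of 12 genes were found by name and 8 had enough UMIs. C1QA, C1QB, C1QC and COLEC12 were higher, C4A and the lectin pathway protease MASP1 were lower, and the median was 1.64. The C1q genes are also on the macrophage marker list that named the class. Their count as higher, and their part in this median, was therefore largely set in advance. Complement receptors had 4 of 6 higher (C5AR1, ITGAM, ITGB2 and VSIG4) and CD93 lower, with a median of 4.20. Of the central and alternative pathway, properdin (CFP) was higher and C3, C5 and CFB were lower of 5, and CFD passed in neither direction at 864 and 1132 CPM. C5 had 1 UMI in macrophage-like cells of each library, against 115 and 71 in all other cells. Its place among the lower genes is therefore uncertain. Soluble regulators had only C4BPA higher, which was chosen, with CLU and SERPING1 lower of 5, and the terminal pathway had C7 lower as the only one with enough UMIs. CD40 was higher and PROS1 lower. No membrane regulator on the list was found by name, so these were not analysed here.

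In the acute phase and inflammatory list, 3 of 12 genes were higher (CCL2, the transcription factor CEBPB and the neutrophil chemokine CXCL8) and 4 were lower (CEBPD, IL6, PTX3 and TNFAIP6), with a median of 0.01. Lists of fibroblast and keratinocyte subset genes, taken from earlier results of these data, had 7 of 8 and 6 of 6 lower. The cells they mark are among the other cells, so this was largely set in advance. Between clusters 7 and 20, 10.2% of 4236 genes were higher in cluster 7 and 5.69% lower. All 4 classical and lectin genes with enough UMIs (C1QA, C1QB, C1QC and COLEC12) and 2 of 4 receptors (C5AR1 and VSIG4) were higher. So were CCL2 and NFKBIA of the inflammatory list, with NFKBIZ lower. The minimum of 50 UMIs was taken over both clusters, which held 1348362 (cluster 7) and 153830 (cluster 20) fresh UMIs. Genes high in cluster 7 therefore met it more easily, and the counts are descriptive. VSIG4 and COLEC12 met it through cluster 7, with at most 2 UMIs in cluster 20. MARCO, high in cluster 20, fell short of it. The C1q genes are also on the macrophage marker list.

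C4BPA stood higher in the cryopreserved library. Over all filtered cells the log2 ratio, cryopreserved over fresh, was 0.94 (interval 0.91 to 0.97), and it was 0.57 (interval 0.54 to 0.61) within the macrophage-like class, whose share of all UMIs differed by 0.39 on the same scale. Without the barcodes found in both libraries these ratios were 0.91 and 0.56. At least 2-fold differences between the libraries were seen for 0.471% (higher) and 0.235% (lower) of 14443 genes over all cells and for 1.36% and 1.85% of 6608 genes within the macrophage-like class. C4BPA passed this limit in neither comparison, though over all cells it passed with all barcodes (log2 ratio 1.31) or without the 1% of cells with most C4BPA UMIs (1.40). No other gene of the complement and inflammatory lists passed.

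The sub-clusters took different shares of the class in the 2 libraries. Sub-cluster 0 made up 16.9% of fresh (interval 11.3 to 23.8%) and 29.7% of cryopreserved macrophage-like cells (interval 24.4 to 35.5%), and sub-cluster 2 made up 25.3% (interval 18.7 to 33.0%) and 11.6% (interval 8.07 to 15.97%). The stress gene HSP70.2 was at 11677 and 12491 CPM in sub-cluster 2 and at 8398 and 12018 CPM in sub-cluster 1, against 105 to 866 CPM (fresh) and 98.8 to 2137 CPM (cryopreserved) in the others, and the part of dissociation stress in these shares was not tested. Within sub-clusters the log2 ratio of C4BPA was 0.31 (interval 0.26 to 0.36) in sub-cluster 0 and 0.45 (interval 0.36 to 0.54) in sub-cluster 2. It was 0.34 (interval 0.18 to 0.49) in sub-cluster 3, -0.07 (interval -0.18 to 0.04) in sub-cluster 1 and -0.02 (interval -0.08 to 0.05) in sub-cluster 4. In sub-cluster 3, 1 cell held 307 of the 647 cryopreserved UMIs, so the direction of its ratio rests on that cell. The share of its cells with a UMI was 53.6% (fresh) and 41.9% (cryopreserved), with medians of 1 and 0 UMIs. A ratio without that cell was not computed. With the same sub-cluster shares given to both libraries, the ratio of the class was 0.21, against 0.57 with their own shares. The sub-clusters were made without integration, so differences between the libraries can enter the grouping itself. Their part in the shares and in the lower ratio was not tested. CD209 differed more than C4BPA within the class, by 1.15 on the log2(CPM + 1) scale, and LYVE1 by 0.99, while C1QA differed by 0.22. Among Fibroblast-like cells the ratio of C4BPA was 0.15 (interval -0.08 to 0.38), and in cluster 1 it was 0.76 (interval 0.46 to 1.06). Freezing, the animal and the library cannot be told apart in this design.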

How the data were processed

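Per the labels and the methods, the authors sorted skin cells by FACS, which also removed doublets, made libraries with the 10x Genomics 3′ kit from about 8000 cells each, and counted UMIs with Cell Ranger 4.0.0 (STAR 2.5.1b) against Sscrofa11.1 with the Ensembl annotation. The deposited values are raw UMI counts per gene and barcode, not normalized. They cover 4379 fresh and 4860 cryopreserved barcodes. Depth per library after filtering was 32274985 and 36687009 UMIs.

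Cells above 4500 genes, 30000 UMIs or 10% of UMIs on 13 mitochondrial genes were left out, after the study's maxima. Seurat 5.3.0 (R 4.3.3) integrated both libraries (2000 features, 30 dimensions, resolution 0.8, C4BPA removed). The Macrophage-like class was clustered again with both libraries merged, without integration (1000 features, 15 dimensions). A cluster was named after the marker list with most markers met, at least 3, a marker being met at a 2-fold difference and in 10% of cells, and stayed unnamed where its leading genes held more markers of another list. Counts were summed per group of cells and divided by the total (CPM), and log2 differences used a pseudocount of 1 CPM. Genes lacking a symbol in the files were named from an Ensembl ID table. Listed genes without a row by name, such as C1R, C1S and the membrane regulators CD46, CD55, CD59 and CR2, were not analysed here. Scrublet (scanpy 1.11.5) marked 3 fresh and 35 cryopreserved cells. Whether it worked in the fresh library was not tested, so cells with the 6% highest scores were left out as an alternative. Intervals are exact Poisson or Clopper-Pearson binomial at 95%. Floors use 3 counts over the group. Replicates do not exist, so no test was run. Scripts were tested on simulated data.

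The members and lists were chosen with earlier results of these data known. Named genes were the 10 most like C4BPA across clusters (at least 20 cells) and across cells (UMI in at least 1% of them), by the lower correlation of both libraries, while the 10 genes least like it, the sub-clusters and the correlations within cluster 7 were added after seeing the data. The 10 leading genes of cluster 7 against cluster 20, and of the sub-clusters compared, needed 100 UMIs in each library in the group where they were higher. Counts of genes past 2-fold needed 50 UMIs in each library. Where cryopreserved was set against fresh, they needed 50 over both libraries together. The 2 clusters with the highest C4BPA level were 7 and 1, of different classes, so cluster 7 was compared with the rest of its class. Alternatives were other cell filters, edgeR 4.0.16 (TMM) and DESeq2 1.42.0 scaling, other resolutions, no integration, thinning to 1000 UMIs (27 fresh and 32 cryopreserved cells were shallower), and cells left out. Sequences came from the RefSeq assembly Sscrofa11.1.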

Additional observations from a re-analysis of the deposited data

Results flagged for a closer look

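Barcodes beyond the gene, UMI or mitochondrial maxima entered only the alternative cell filters, and they also held C4BPA, above the limit that a count of 0 allows. The 1604 such barcodes of the fresh library had 2095 C4BPA UMIs (99.8 CPM), with at least 10 in 13 of them, and the 637 of the cryopreserved library had 1619 (293 CPM), with at least 10 in 16.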

How the results depend on the processing

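The log2 ratio over all filtered cells (0.94, under 2-fold) passed 2-fold at 1.31 with all barcodes and was 0.9999 without the mitochondrial limit, 1.40 (past 2-fold) without the 1% of cells with most C4BPA UMIs, 0.98 with TMM factors, 0.98 with DESeq2 size factors and 0.97 with TMM factors from genes with at least 10 UMIs. Within the macrophage-like class (0.57) it was 0.68 at resolution 1.2, 0.68 with TMM factors and 0.53 after thinning, and, by choices made after seeing the data, 0.63 without sub-cluster 1 and 0.66 without cluster 20. Also chosen after seeing the data, the fresh level of Basal keratinocyte-like cells (8.85 CPM) was 1.43 CPM without its richest cell, and that of sub-cluster 3 (2534 CPM) was 2808 CPM without cells of cluster 20. The variance rank (2 in both libraries) in the fresh library was 1 with all barcodes, 1 without the mitochondrial limit, 1 without Fibroblast-like cells, 1 without unnamed clusters, 6 without Basal keratinocyte-like cells, 1022 without Macrophage-like cells and 206 by dispersion. In the cryopreserved library it was 8 without Basal keratinocyte-like cells, 2247 without Macrophage-like cells and 364 by dispersion. The class held 97.2% of fresh UMIs without cells of high doublet scores. The 2 leading clusters together (clusters 7 and 1, 97.8% and 99.1%) held 97.3% and 98.9% at resolution 1.2, where other clusters took their place. The fibroblast-like one then had 166 fresh and 187 cryopreserved cells, against 309 and 338 in cluster 1, so different cells were summed. After thinning, 62.0% of fresh macrophage-like cells held a UMI, against 73.4%. The 10% of cells with most then held 100% of the UMIs in both libraries, because no more than 10% of cells kept one. That share therefore says nothing further on how packed the UMIs were. The cause of the other shifts was not tested. The other 47 values stayed within counting error of the main value, or, for ranks, within 1.5 times of it. No direction reversed in these settings, which did not include the ratios within sub-clusters. No paired analysis was possible because each condition had 1 library and no test was run. With 1 library each, depth limits only the counting error. At 15 fresh cells, 3 counts in cluster 20 would be 19.5 CPM, and the exact upper limit was 23.98 CPM.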
